A study of Mus musculus with 2 samples.

Results

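The genes described here encode the receptors for serotonin, dopamine, noradrenaline and acetylcholine. They were taken by symbol: every protein-coding gene of the mm10 GENCODE annotation whose name begins with Htr, Drd, Adra, Adrb, Chrm or Chrn followed by a receptor subtype, leaving out the Htra proteases and the Adrbk kinases. This gave 49 of 21938 protein-coding genes. There were 14 serotonin receptor genes (Htr), 5 dopamine receptor genes (Drd), 6 alpha-adrenergic (Adra) and 3 beta-adrenergic (Adrb) receptor genes, 5 muscarinic acetylcholine receptor genes (Chrm) and 16 nicotinic acetylcholine receptor subunit genes (Chrn). The rule uses no measured value.

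Most of these receptors couple to heterotrimeric G proteins: Gs raises cyclic AMP through adenylyl cyclase, Gi lowers it, and Gq activates phospholipase C beta. The serotonin Htr3 subunits and the nicotinic subunits instead form ligand-gated cation channels. The cerebellum receives noradrenergic fibres from the locus coeruleus, serotonergic fibres from the brainstem raphe and cholinergic mossy fibres, whose cell bodies lie outside it, and its own cells carry the receptors.

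DNase-seq, in which DNase I cuts accessible chromatin and the cuts are sequenced, was done on whole cerebellum of male B6CASTF1/J mice of 8 to 10 months. There were 2 libraries, called replicate 1 and replicate 2 as the labels number them. Every library was made from a separate pool of 2 biosamples and both carry the same donor entry, so the spread between them may be partly technical. There was 1 tissue and no treated group, so there was no test: values are given per library, beside the same values for all protein-coding genes. For each library the authors deposited a stricter peak list, with 61776 peaks in replicate 1 and 71141 in replicate 2, and a longer one, with 99710 and 114935 peaks. Every peak of the stricter lists held a base with a false discovery rate (FDR) under 0.001 in the deposited table of cut rates, against 64.1% and 63.9% of the peaks in the longer lists. A peak overlapping 1 kb either side of any annotated start of a gene is called a TSS peak, and unless the longer list is named, peaks are those of the stricter list. Peak height is the authors' signal value, which moved in whole steps of 0.00714 in replicate 1 and 0.00632 in replicate 2. No source used here gives the scale of the signal, so its values are compared within a library, and a mean over both serves only to order peaks. Read numbers were not used here. In either library 5 of 5 granule cell markers were accessible at the start, with 2 of 4 Purkinje cell markers, 2 of 4 astroglial markers, 1 of 4 oligodendrocyte markers, and 0 of 3 microglial and 0 of 3 forebrain markers. For some of the granule cell markers the strongest TSS peak was shared with the start of another coding gene. Of 3 vessel markers replicate 1 had 0 and replicate 2 had 1, and of 3 choroid plexus markers replicate 1 had 1 and replicate 2 had 2. Dbh, Th, Fev and Chat, which mark noradrenergic, dopaminergic, serotonergic and cholinergic neurons, had none in either library. In whole tissue, few cells with an open start and weak opening in many cells cannot be told apart.

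Few of the receptor genes had an accessible start in whole cerebellum. Of the 49, 14 (28.6%) had a TSS peak in the replicate 1 list and 10 (20.4%) in the replicate 2 list, while 58.4% and 57.2% of all protein-coding genes did. The mean over the replicates was 24.5% ± 5.77 of the receptor genes and 57.9% ± 0.843 of the other coding genes (SD, n = 2). Both replicates had a TSS peak at 10 receptor genes, replicate 1 alone at 4, and neither at 35, against 55.9% of coding genes with one in both, 3.82% in exactly 1 replicate and 40.3% in neither. Where a receptor gene did have a peak, the peak was low. The median signal of the strongest TSS peak was 1.45 in replicate 1 and 1.04 in replicate 2 at the receptor genes, against 4.83 and 3.39 at the other coding genes with one. All 14 in replicate 1 and 9 of the 10 in replicate 2 lay under the median of coding genes, the exception being Chrnb1. In steps of the signal, the receptor peaks ran from 55 to 606 in replicate 1 and from 37 to 713 in replicate 2. If a step is 1 cut, that is a relative counting error of 13.5% and 16.4% at the weakest and of 4.06% and 3.75% at the strongest.

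The longer lists held a TSS peak at 23 receptor genes in replicate 1 and 22 in replicate 2, with 18 in both, against 63.4%, 62.2% and 60.5% of coding genes. Thus 13 of the 35 genes with no peak in the stricter lists had one in the longer list of at least 1 replicate, 5 of them in both. Of the remaining 22, 3 (Drd4, Htr2c and Htr6) had a base within 1 kb of a start with an FDR under 0.05 in at least 1 replicate. The other 19 had no such base listed: Adrb3, Chrm1, Chrna1, Chrna2, Chrna4, Chrna6, Chrna9, Chrna10, Chrnb3, Chrnd, Chrne, Chrng, Drd3, Drd5, Htr1f, Htr2a, Htr2b, Htr3b and Htr5b. The deposited tables list no FDR of 0.05 or more, so no value can be given for their starts. With RefSeq starts in place of GENCODE ones, 14 and 10 receptor genes again had a TSS peak, against 59.6% and 58.2% of 20508 coding genes.

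**Figure D1:**
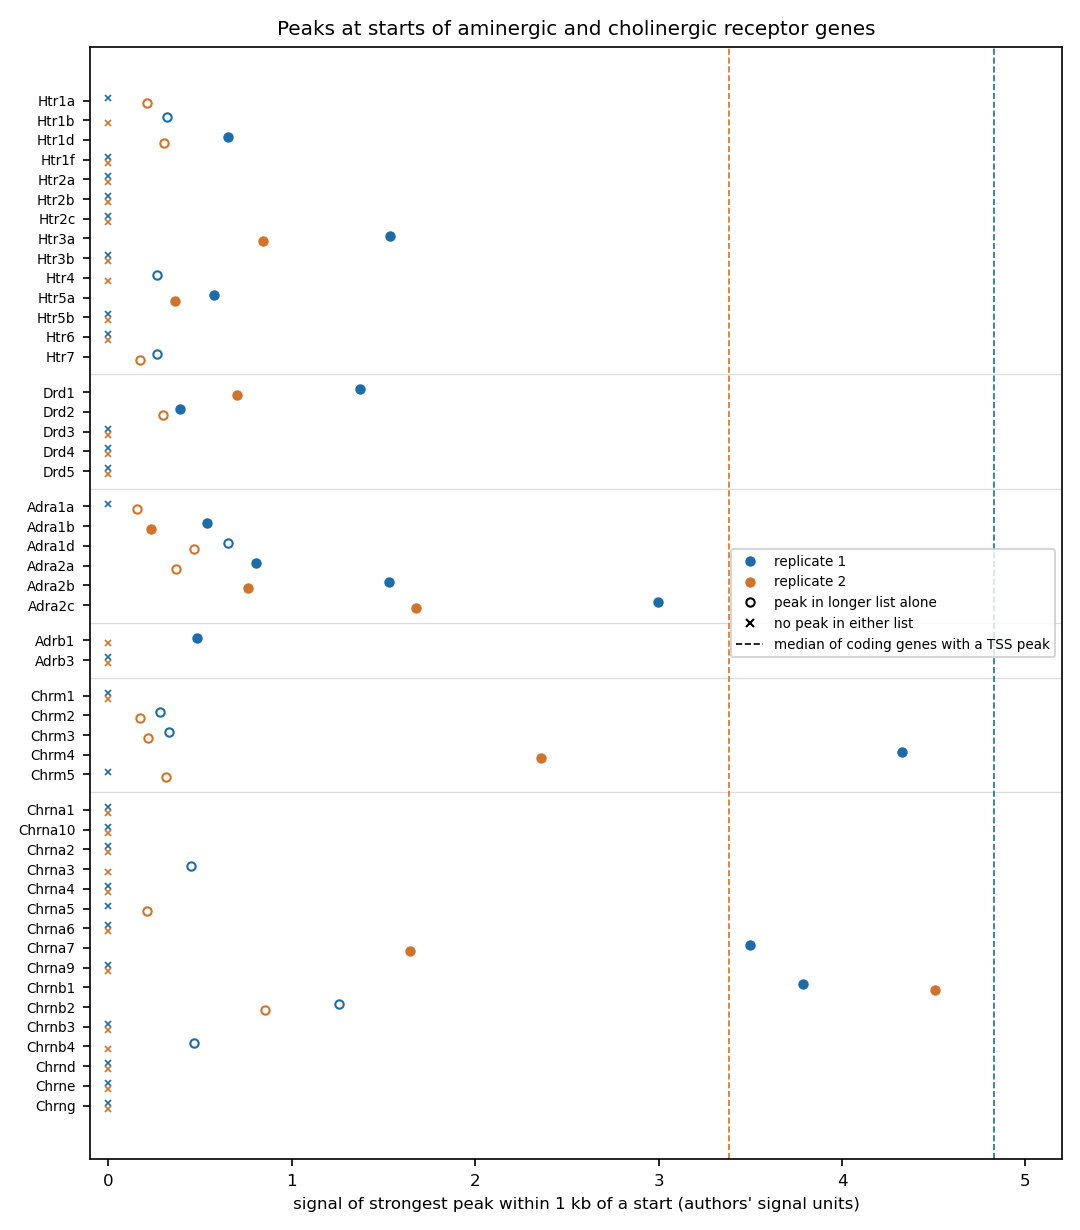
Signal of the strongest peak within 1 kb of a start for 48 receptor genes, in the authors' units, with filled points for peaks of the stricter list, open points for peaks of the longer list alone and crosses for no peak in either. Dashed lines mark the medians over all coding genes that had one, at 4.83 for replicate 1 and 3.38 for replicate 2; of the receptor genes, Chrnb1 in replicate 2 alone lies above its line.

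Among the 14 serotonin receptor genes, replicate 1 had a peak at the start of 3 and replicate 2 at 2. The highest was at Htr3a, the subunit that can form a serotonin-gated channel on its own, with a signal of 1.53 in replicate 1 and 0.841 in replicate 2. Its partner subunit gene Htr3b had no peak in either list. At Htr3a the peak was centred within 20 bp of an annotated start in both replicates, and 4 of its 5 footprints in replicate 1, the short protected stretches inside a peak that the authors called, were found again in replicate 2. The footprint farthest into the gene is shown because it was found in both libraries (mm10, chr9:48910955-48910984, minus strand, reference bases of UTR and coding exon, footprint in capitals).
Htr3a: CACATCTGGGAAGCTTGCCATGCGGCTCTg
It holds the bHLH motif CAGATG on the opposite strand. Htr5a, a Gi-coupled receptor, had peaks of 0.578 and 0.360. Htr1d, a Gi-coupled autoreceptor in other brain regions, had a peak of 0.650 in replicate 1, centred 506 bp inside a non-coding transcript's start, and in replicate 2 a peak of the longer list alone, of 0.303. The other 11 genes had no peak in the stricter lists. The longer lists held Htr7, a Gs-coupled receptor, in both replicates (0.264 and 0.171), the Gi-coupled Htr1b (0.321) and the Gs-coupled Htr4 (0.264) in replicate 1 alone, and the Gi-coupled Htr1a (0.209) in replicate 2 alone. Of the Gq-coupled Htr2 genes none had a peak in either list, although Htr2c had an FDR as low as 0.0356 over 5 bases in replicate 1 and 0.0225 over 20 bases in replicate 2.

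Of the dopamine receptor genes, Drd1 alone had one in both libraries. The Drd1 peak, at the gene of the main Gs-coupled dopamine receptor, had a signal of 1.37 in replicate 1 and 0.702 in replicate 2 and was centred at -46 bp and -9 bp from the start. Drd2, the Gi-coupled receptor that also acts as an autoreceptor, had a peak of 0.393 in replicate 1, and in replicate 2 a peak of the longer list alone, of 0.297, where the lowest FDR was 0.00465. Drd3 and Drd5 had no base with an FDR under 0.05 near a start, and Drd4 had 7 bases in replicate 1, at 0.0400, and none in replicate 2.

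The alpha-adrenergic receptor genes had TSS peaks more often than the serotonin, dopamine, muscarinic and nicotinic families, by count alone. In replicate 1 there were 4 of 6 with one (66.7%) and in replicate 2 there were 3 (50%), near the 58.4% and 57.2% of all coding genes. This order rested on the window and the list: with 500 bp either side of a start, or with peaks at or above the median signal of each list, 1 of the 6 had a peak in both replicates, against 3 as counted here, and so did 1 of the 5 muscarinic genes. The longer lists held all 6 in at least 1 replicate. Adra2c, a Gi-coupled autoreceptor of noradrenergic neurons, had the highest signal, 3.0 in replicate 1 and 1.68 in replicate 2. Its peak was centred 632 bp and 612 bp into the gene, in UTR sequence. With a window of 500 bp the replicate 1 peak, which began at chr5:35278821, was no longer counted, while that of replicate 2 kept its 1.68. The mean over both replicates was then 0.838, against 2.34 with 1 kb. Beside the Adra2c peak lay a weaker one of 1.59 and 0.929 further in. Adra2b, of the same Gi-coupled class, had peaks of 1.53 and 0.759 centred at -597 bp and -591 bp from its start, outside a window of 500 bp, and Adra2a one of 0.807 in replicate 1 and, in the longer list alone, 0.367 in replicate 2. Adra1b, a Gq-coupled receptor, had 0.535 and 0.234, and that peak lay 64602 bp inside the gene, at an internal annotated start. Its relatives Adra1d (0.650 and 0.468) and Adra1a (0.158, replicate 2) were in the longer lists alone.
Among the beta-adrenergic genes, Adrb1, a Gs-coupled receptor, had 0.485 in replicate 1 and no peak in either list of replicate 2, where 1 base had an FDR of 0.0463. Adrb3, known from adipose tissue, had none.
The Adra2c peak held 2 overlapping footprints found in both replicates over the letters AGGGGGCGC, the core of the motif of CTCF, a zinc finger protein that anchors chromatin loops. The 30 bases around them are shown (mm10, chr5:35278980-35279009, plus strand, UTR, footprint in capitals).
Adra2c: CAGGCTGCAGTTGGCCCTGGAGGGGGCGCC

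Of the muscarinic receptor genes, 1 of 5 had a TSS peak in each replicate: Chrm4, whose product is the Gi-coupled M4 receptor. Chrm4 had 3 TSS peaks in each replicate, and its strongest had a signal of 4.33 in replicate 1 and 2.36 in replicate 2, at the 45.2 and 34.8 percentile of coding genes with a TSS peak. That peak was centred 782 bp into the coding exon, and with 500 bp either side of the start the mean of the strongest over both replicates was 0.568, against 3.34 with 1 kb. The GENCODE gene begins at the coding sequence (chr2:91927249), while RefSeq places a start upstream at chr2:91922189. A peak ended just before the RefSeq start, at chr2:91921781-91922180, with 1.65 in replicate 1 and 0.891 in replicate 2, so in both replicates the coding exon peak was the higher. Both are shown because both held the CTCF core AGGGGGCGC in a footprint found in both libraries (mm10, plus strand, footprints in capitals). The first covers the whole coding exon peak, chr2:91927921-91928140, and the second, chosen after its values were seen, covers chr2:91921831-91922130.
Chrm4 coding exon: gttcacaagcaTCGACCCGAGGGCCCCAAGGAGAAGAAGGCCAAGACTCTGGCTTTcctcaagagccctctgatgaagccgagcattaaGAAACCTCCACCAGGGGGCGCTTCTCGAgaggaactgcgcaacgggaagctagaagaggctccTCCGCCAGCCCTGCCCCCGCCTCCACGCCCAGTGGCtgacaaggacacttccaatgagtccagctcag
Chrm4 RefSeq start: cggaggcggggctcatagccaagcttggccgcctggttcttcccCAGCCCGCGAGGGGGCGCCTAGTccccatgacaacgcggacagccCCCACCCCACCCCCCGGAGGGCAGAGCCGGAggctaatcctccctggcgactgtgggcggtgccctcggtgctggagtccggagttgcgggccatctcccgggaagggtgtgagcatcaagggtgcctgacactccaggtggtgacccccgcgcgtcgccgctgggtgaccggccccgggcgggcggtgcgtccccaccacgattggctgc
The other muscarinic genes had weaker accessibility. The Gi-coupled Chrm2 (0.278 and 0.171) and the Gq-coupled Chrm3 (0.328 and 0.215) had peaks of the longer lists alone in both replicates, and the Gq-coupled Chrm5 had one of 0.316 in replicate 2. Chrm1, the Gq-coupled receptor of forebrain neurons, had none.

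The nicotinic subunit genes had TSS peaks at 2 of 16, the same 2 in both replicates. Chrnb1, the beta subunit of the muscle receptor, had a signal of 3.79 in replicate 1, under that of Chrm4 alone among the 49 genes, and of 4.51 in replicate 2, the highest of them. Its peak was centred 424 bp and 434 bp inside the nearest annotated start, in an intron. Its log2 ratio of replicate 1 to replicate 2 was -0.25, the lowest among receptor genes, against a median of 0.87 over the 10 receptor genes with both peaks and of 0.55 over 12257 coding genes, of which the central 95% lay from -0.24 to 1.08. Adra1b, at 1.19, and Chrna7, at 1.09, were past the upper bound. Chrna7, the subunit of the homomeric alpha7 receptor, had 3.5 in replicate 1 and 1.64 in replicate 2, with the peak centred at -22 bp and -32 bp from a start, and a weaker second one of 0.778 and 0.392 over coding sequence. These peaks are shown for their shared footprints, in capitals (mm10, minus strand, chr11:69795331-69795630 for Chrnb1, chr7:63212527-63212720 for the upstream side of Chrna7).
Chrnb1: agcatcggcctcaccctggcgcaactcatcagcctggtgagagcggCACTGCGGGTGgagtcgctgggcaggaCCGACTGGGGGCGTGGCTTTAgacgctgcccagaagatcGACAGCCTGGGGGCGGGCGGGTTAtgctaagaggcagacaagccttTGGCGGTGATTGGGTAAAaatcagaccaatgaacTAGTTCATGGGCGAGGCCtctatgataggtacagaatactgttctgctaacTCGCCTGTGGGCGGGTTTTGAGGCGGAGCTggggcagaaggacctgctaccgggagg
Chrna7: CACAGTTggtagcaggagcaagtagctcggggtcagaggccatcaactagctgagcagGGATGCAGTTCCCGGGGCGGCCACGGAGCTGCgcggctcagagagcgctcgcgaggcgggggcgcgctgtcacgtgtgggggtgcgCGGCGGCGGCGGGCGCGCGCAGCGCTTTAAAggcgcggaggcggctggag
In the Chrnb1 peak, 8 of 9 footprints of replicate 1 were found in replicate 2, and 2 of them lay within 10 bp of the NFY motif CCAAT. In the Chrna7 peak, 4 of 5 were found again. The remaining muscle subunits, Chrna1, Chrnd, Chrne and Chrng, had no peak in either list at any start.
The neuronal subunits other than Chrna7 had no peak in the stricter lists. Chrnb2, which joins Chrna4 in the most common brain receptor, had longer-list peaks of 1.26 and 0.853, a signal above that of several genes in the stricter list, with a lowest FDR of 0.000524 in replicate 1 and 0.0145 in replicate 2. Chrna3 (0.450) and Chrnb4 (0.464) were in the longer list of replicate 1 alone and Chrna5 (0.209) in that of replicate 2 alone. These 3 genes lie side by side on chromosome 9 and encode subunits of ganglionic receptors. Chrna2, Chrna4, Chrna6, Chrna9, Chrna10 and Chrnb3 had none in either list.

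By mode of signalling, replicate 1 had an accessible start at 11 of 31 genes of G protein-coupled receptors and replicate 2 at 7 of them, and each had one at 3 of 18 channel subunit genes. Within the coupled receptors the Gi class had 7 of 14 in replicate 1 and 4 in replicate 2, the Gs class 3 and 2 of 8, and the Gq class 1 of 9 in each. Over all coding genes the shares were 58.4% in replicate 1 and 57.2% in replicate 2. Differences between classes of this size were not tested.
The receptor peaks also lay farther from starts, by their medians. In replicate 1 the strongest TSS peak was centred a median of 339.5 bp from the nearest annotated start at receptor genes and 62 bp at other coding genes, and in replicate 2 the medians were 193 and 67 bp. Within 250 bp of a start were 5 of 14 in replicate 1 and 5 of 10 in replicate 2 at receptor genes, against 84.4% and 83.6% at other coding genes. None of the receptor peaks lay within 1 kb of the start of another coding gene, while 20.9% and 21.3% of all coding genes with a TSS peak shared it in that way. Of the 14 in replicate 1, 7 were upstream of the gene, 3 in UTR, 3 in an intron and 1 in a coding exon.

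Starts rich in CpG are usually accessible in any tissue, and many of these receptor genes have such starts. CpG observed over expected, taken 500 bp either side of the start and highest over a gene's starts, had a median of 0.517 at the receptor genes and 0.627 at the other coding genes. Of 21 receptor genes at 0.6 or above, 9 (42.9%) were accessible at the start in replicate 1 and 5 (23.8%) in replicate 2, against 90.0% and 88.1% of all coding genes in that class. Of 11 from 0.4 to under 0.6, 2 had one in each replicate (18.2%), against 59.0% and 56.2%. Of 17 under 0.4, 3 had one in each replicate (17.6%), against 9.37% and 9.86%. The low share among receptor genes was thus seen in the 2 upper classes and not in the lowest. Htr7 (0.925), Chrna5 (0.885), Adra1d (0.816) and Chrm3 (0.795) had the highest ratios among receptor genes with no peak in the stricter lists. Htr3a (0.190), Chrm4 (0.238) and Adra2c (0.263) were the 3 with a peak in the lowest class. The strongest peaks of Chrm4 and Adra2c were centred 782 bp and 632 bp inside the gene in replicate 1, outside the 500 bp used for the ratio. The Chrm4 ratio was taken at its GENCODE start, where the coding sequence begins, and not at the upstream RefSeq start.

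**Figure D2:**
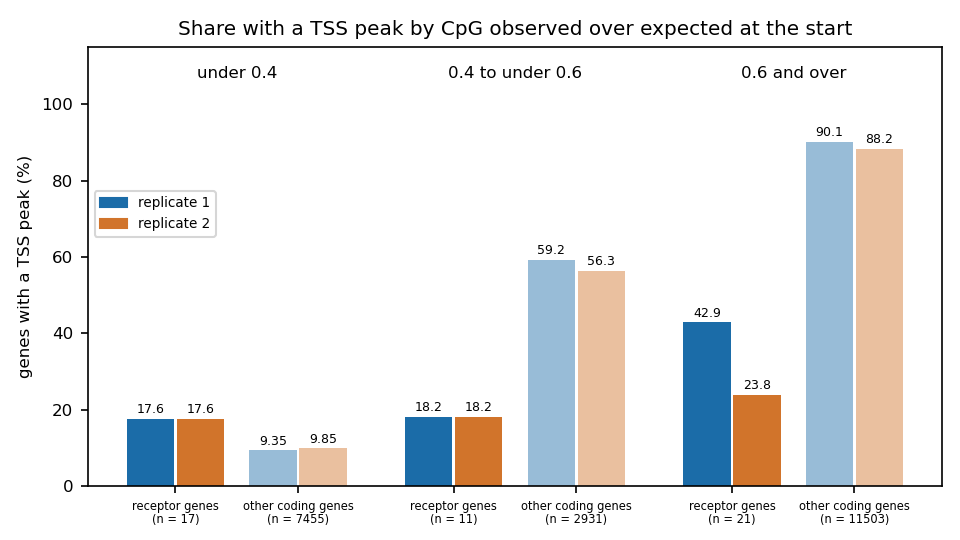
Percentage of genes with a TSS peak in each replicate, by class of CpG observed over expected at the start, for receptor genes (dark bars) and other coding genes (pale bars), with the number of genes under each pair. In the class of 0.6 and over, the receptor genes reach 42.9% and 23.8% and the other coding genes 90.1% and 88.2%.

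In a wider window, which takes in peaks at the starts of any gene, the receptor genes were nearer to the rest. Any peak within 50 kb of a start was found for 39 of 49 (79.6%) in replicate 1 and 41 (83.7%) in replicate 2, against 82.4% and 83.6% of coding genes, and the mean was 81.6% ± 2.89 for receptor genes and 83.0% ± 0.879 for other coding genes (SD, n = 2). Both replicates had no peak within 50 kb for 7 receptor genes, Chrm2, Chrna6, Htr1a, Htr1b, Htr1f, Htr2c and Htr4, against 15.3% of coding genes. Distal peaks, centred over 1 kb from every annotated start of any gene, numbered 2.10 per receptor gene in replicate 1 and 2.49 in replicate 2, against 2.99 and 3.23 per other coding gene. The medians were 1 and 2 in both sets. At least 1 distal peak was found for 30 receptor genes in replicate 1 and 37 in replicate 2, against 67.5% and 72.6% of coding genes, and 5 or more for 5 and 8, against 19.5% and 22.3%. In replicate 1, 20 receptor genes had a distal peak and no TSS peak, and in replicate 2 there were 28 (40.8% and 57.1%), against 20.1% and 23.4% of all coding genes. More of the receptor genes lacked a TSS peak, so a higher share follows in part from that and is no separate distal result.
The distal peaks were of ordinary height. Their median signal was 1.12 in replicate 1 and 0.711 in replicate 2, against 1.11 and 0.790 over all distal peaks. Of 96 in replicate 1, 76.0% overlapped a peak of replicate 2, against 72.5% of all distal peaks, and of 114 in replicate 2, 63.2% overlapped one of replicate 1, against 58.2%. Of these, 6 and 7 were counted for more than 1 receptor gene, all in the Chrna3, Chrna5 and Chrnb4 cluster or between the neighbours Chrnd and Chrng. In each replicate 2 peaks at Chrm4 and Adra2c counted both as TSS and as distal, since they overlapped the window with a centre outside it.

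**Figure D3:**
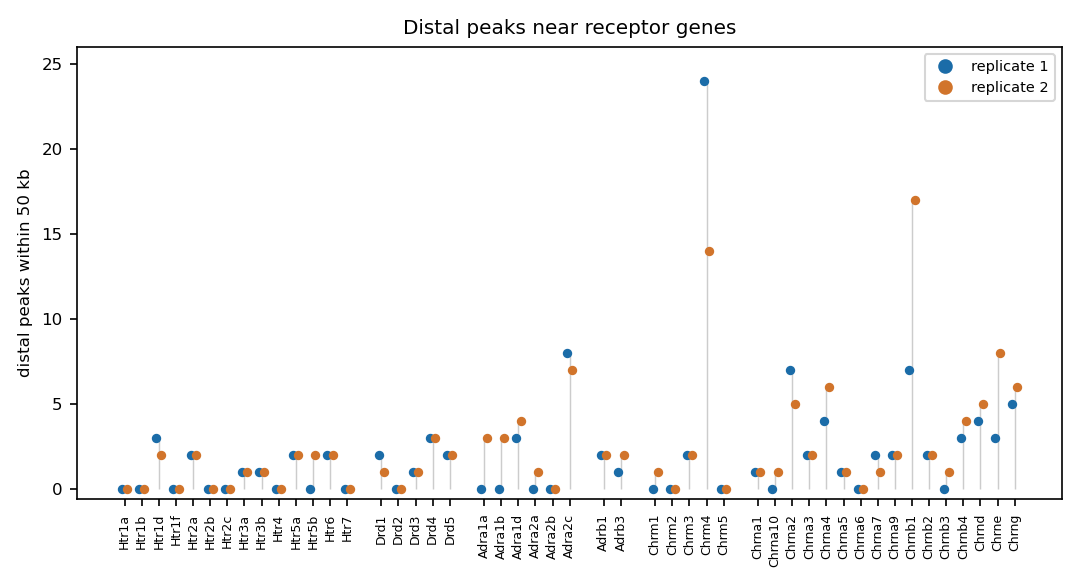
Number of distal peaks within 50 kb of a start for 48 receptor genes in replicate 1 and replicate 2, in the order of the families. Chrm4 with 24 is highest in replicate 1, where Adra2c has 8 and Chrnb1 7, and Chrnb1 with 17 and Chrm4 with 14 are highest in replicate 2, and the serotonin receptor genes hold at most 3.

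The strongest distal peak of a gene is taken here as the one of highest mean signal among those found in both libraries. Chrm4 had 24 distal peaks in replicate 1, the most of any receptor gene, and 14 in replicate 2, but it was the nearest coding gene for 10 and 6 of them, and others lay in Dgkz, a diacylglycerol kinase gene. The strongest found in both, at chr2:91960101-91960300 inside Dgkz, had a signal of 3.63 in each replicate. Distal was judged by GENCODE starts, so both counts take in peaks within 1 kb of the Chrm4 RefSeq start. In replicate 1 the peak shown there is among them. Peaks of a list that overlapped one another were each counted, as at Chrm4 and Adra2c. Chrnb1 had 7 in replicate 1 and 17 in replicate 2, the most there, and was nearest to none of them. The strongest shared one, of 1.83 and 1.11, lay in Zbtb4.
Unlike Chrm4 and Chrnb1, Adra2c was the nearest coding gene to all its distal peaks, 8 in replicate 1 and 7 in replicate 2. That also held for genes with fewer distal peaks, among them Drd5, Chrm3, Chrna9 and Htr2a. In each replicate 3 of the Adra2c distal peaks lay inside the gene. The strongest, at chr5:35320781-35321000, 42572 bp beyond the start, had 3.65 and 2.57, and another 27212 bp beyond the start in replicate 1 had 3.09 and 3.10, the higher of the pair in replicate 2. Adra1d had 3 and 4, the strongest shared one, of 0.956 and 1.15, being nearest to Smox, and another of 1.06 and 0.689 being nearest to Adra1d.
Among the dopamine receptor genes, Drd5 had no peak at its start and 2 distal ones in each replicate, both nearest to it. The stronger, at -11416 bp from the start and chr5:38307861-38308040, had 4.78 in replicate 1 and 2.53 in replicate 2, above the TSS signal of any receptor gene in replicate 1. Drd4 had 3 in each, the strongest shared one, of 1.52 and 2.47, lying in the neighbouring Deaf1.
The serotonin receptor genes had few. Htr1d had 3 and 2, with the strongest shared one of 2.26 and 2.2 nearest to Luzp1, and Htr2a had 2 in each, with an intronic one of 1.14 and 0.442. Adrb1 had 2 in each, with 0.749 and 0.455 at the strongest shared. Chrm3 had 2 in each, with 0.878 and 0.670 at the strongest.
Nicotinic genes without an accessible start differed in their distal peaks. Chrna6 had none, Chrna10 and Chrnb3 had 1 each, in replicate 2 alone, of 0.664 and 0.329, and Chrna9 had at most 1.13 in replicate 1 and 0.582 in replicate 2. Chrnb2 had an intronic peak of 3.43 in replicate 1 and 4.46 in replicate 2, 3420 bp inside the gene, which exceeds its longer-list start peak in both. Chrna4 had 4 and 6, with 3.52 and 1.83 at a peak -16815 bp from the start. In the Chrna3 cluster a Chrna3 intron held a peak of 2.85 and 1.47 that was counted for all 3 genes, and Chrnb4 had one of 3.31 and 3.19, at -34602 bp from its start. Chrna2 had 7 and 5, of which 1 in each replicate was nearest to it and the strongest shared one, of 1.09 and 0.885, lay in Ptk2b.
The Chrm4 distal peak is shown because Chrm4 had the most distal peaks by the mean of both replicates. Those of Drd5 and Chrnb2 are shown because their starts had no peak in the stricter lists. All are given in mm10, with footprints found in both libraries in capitals. The Chrm4 and Drd5 peaks are on the plus strand, and the Chrnb2 one is on the minus strand over chr3:89759831-89760130. The last 2 were chosen after their values were seen.
Chrm4 distal: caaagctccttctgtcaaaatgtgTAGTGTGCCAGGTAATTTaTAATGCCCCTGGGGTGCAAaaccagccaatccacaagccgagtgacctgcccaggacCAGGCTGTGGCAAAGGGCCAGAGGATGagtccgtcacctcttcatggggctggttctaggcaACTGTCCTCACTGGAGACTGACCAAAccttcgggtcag
Drd5 distal: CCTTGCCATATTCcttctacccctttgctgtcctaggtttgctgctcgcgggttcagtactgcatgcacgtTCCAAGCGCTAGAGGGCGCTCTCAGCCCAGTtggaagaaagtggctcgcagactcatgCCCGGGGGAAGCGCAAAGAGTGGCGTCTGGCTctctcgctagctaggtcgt
Chrnb2 distal: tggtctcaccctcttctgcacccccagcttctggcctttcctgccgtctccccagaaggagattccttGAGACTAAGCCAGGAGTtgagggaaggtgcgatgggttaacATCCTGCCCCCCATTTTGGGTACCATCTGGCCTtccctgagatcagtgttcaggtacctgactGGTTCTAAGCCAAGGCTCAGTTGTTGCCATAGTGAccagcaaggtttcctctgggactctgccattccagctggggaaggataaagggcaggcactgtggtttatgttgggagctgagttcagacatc

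**Figure D4:**
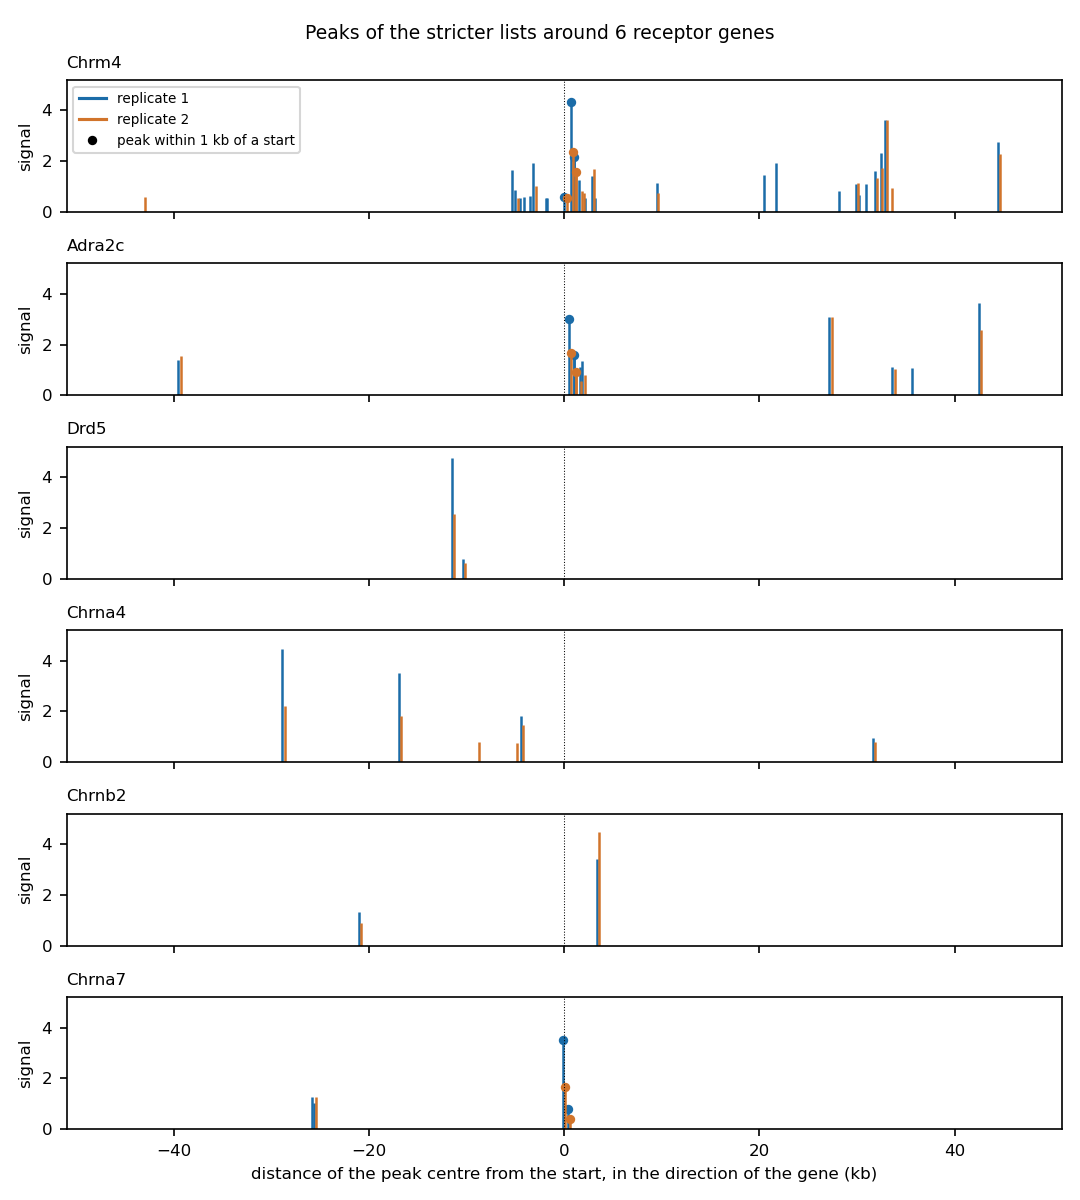
Signal of each peak of the stricter lists against the distance of its centre from the gene start, in kb and in the direction of the gene, for 6 receptor genes chosen after their values were seen, with lines of the 2 replicates drawn slightly apart and dots on peaks within 1 kb of a start. Drd5, Chrna4 and Chrnb2 have lines away from 0 and no dot, while Chrna7 has its highest line at the start and Chrm4 and Adra2c have both kinds.

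A list of 18 motifs was searched on both strands from 250 bases before to 50 after each gene start and in the central 200 bases of peaks. A match gives the letters alone and is no evidence of binding, and the motifs named were chosen from the 18 after their values were seen. The ETS motif CCGGAAG was in 0 of 49 receptor promoters and in 10.8% of all coding promoters, NRF1 (GCGCATGCG) in 0 and 2.48%, and SP/KLF (GGGGCGGGG) in 4 (8.16%) and 14.5%. EGR (GNGTGGGNG) was in 11 (22.4%) and 15%, NFY (CCAAT) in 15 (30.6%) and 39.0%. The letters TATAAA of a core promoter box were in 2 (4.08%) and 12.6%. In TSS peaks the CTCF core was found in 3 of 19 at receptor genes in replicate 1, at Adra2c, Chrm4 and Adrb1, and in 2 of 15 in replicate 2, at Adra2c and Chrm4, against 2.08% and 1.77% of TSS peaks of all coding genes.
The right part of the motif of REST, a repressor of neuronal genes in other cells, is GGACAGC. It was in 13 of 94 distal peaks of receptor genes that were not also TSS peaks in replicate 1 (13.8%) and in 13 of 112 in replicate 2 (11.6%), against 6.14% and 5.48% of all distal peaks. The left part, TTCAGCACC, was in none of them, against 0.297% and 0.275% of all distal peaks. In both replicates the right part was present in the stronger Drd5 peak shown above, outside the footprints in capitals. In the weaker Drd5 peak, of 0.785 in replicate 1, it lay in or within 10 bp of a footprint found in both libraries. Shares of peaks with a footprint were like the rest: 16 of 19 TSS peaks (84.2%) in replicate 1 and 11 of 15 (73.3%) in replicate 2, against 87.3% and 81.5% of all TSS peaks, and 89.4% and 85.7% of distal peaks, against 88.9% and 85.5%.

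The genes that carry the signal inside the cell had accessible starts more often than the receptors, by count, at 27 of 31 in each replicate. Of 11 G protein alpha subunit genes, both libraries had a peak at the start of 10, with Gna11 (14.8 and 11.1), Gnaz (11.5 and 8.12) and Gnai2 (6.43 and 5.28) highest and Gna15 without one. All 7 receptor kinase and arrestin genes had one in both, with Grk6 (14.9 and 13.5) and Arrb2 (8.87 and 6.57) among the highest, while that of Grk4 (12.1 and 11.6) was shared with the start of Nop14. Of 13 adenylyl cyclase and phospholipase C beta genes, 10 had one in both, led by Plcb4 (4.79 and 2.87), Adcy9 (4.65 and 2.39) and Adcy5 (3.43 and 2.30), and Adcy2 and Adcy4 had none.
Of 9 nicotinic receptor chaperones and modulators, 6 had one in replicate 1 and 4 in replicate 2. Ric3, an assembly chaperone of the alpha7 receptor, had 5.90 and 3.09, Lynx1, a membrane-bound modulator, had 3.45 and 2.73, and Tmem35a, a chaperone also known as NACHO, had 1.05 and 0.796. Ly6h and Musk had none.
Genes of transmitter handling were closer to the receptors. Of 11 genes for synthesis and release of monoamines, 3 had one in replicate 1 and 2 in replicate 2: Tph2, the brain tryptophan hydroxylase (1.41 and 1.16), Slc18a1 (13.9 and 8.58), whose peak was shared with the start of Atp6v1b2, and Gch1 (0.457, replicate 1). Dbh and Ddc had none. Of 8 for uptake and breakdown, 3 had one in both, among them Maoa (4.09 and 3.24) and Slc29a4, a low-affinity monoamine transporter (3.22 and 2.11), but not Maob or Slc22a3. Of 5 acetylcholine genes, Ache, the acetylcholinesterase, had 7.31 and 4.36, Bche had 0.300 in replicate 1, and Chat and Slc18a3 had none. Of the other aminergic receptors, Hrh3, the histamine autoreceptor, had 2.28 in replicate 1 and, in the longer list alone, 1.06 in replicate 2. Hrh1 had peaks of the longer lists alone (0.443 and 0.202), and Hrh2, Hrh4 and Taar1 had none in either list. Among the pathway genes given above without a peak, the longer lists held Adcy2 (0.393) and Ly6h (0.464) in replicate 1 alone. They held Maob in both replicates (0.114 and 0.126), and Gch1 (0.240) and Bche (0.234) in replicate 2. Over the 69 genes of these 8 lists, replicate 1 had a peak at 42 starts (60.9%) and replicate 2 at 37 (53.6%), close to the 58.4% and 57.2% of all coding genes.

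**Figure D5:**
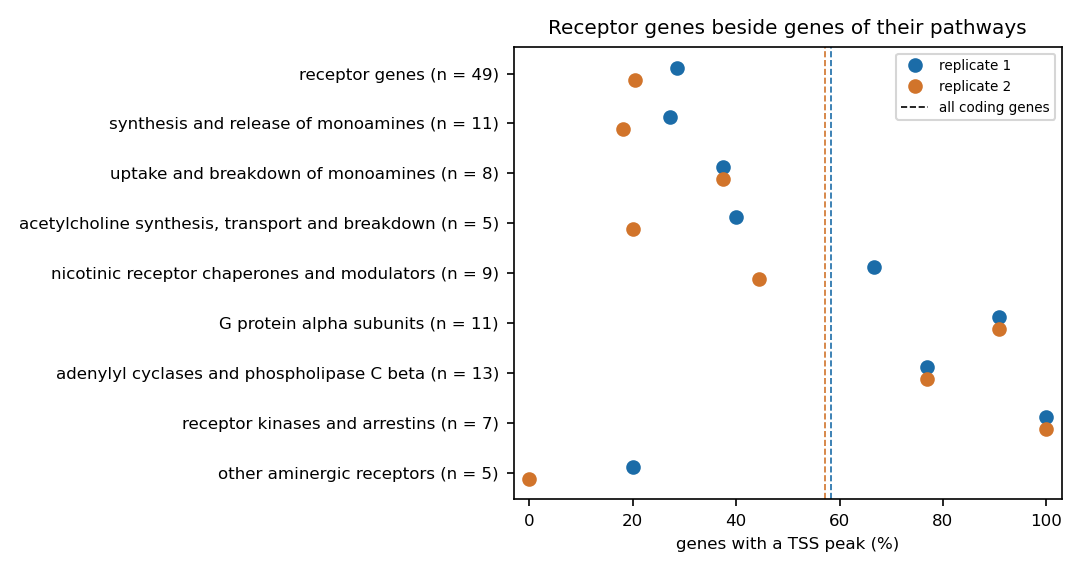
Percentage of genes with a TSS peak in replicate 1 and replicate 2 for the receptor genes, at the top, and for 8 lists of genes of their pathways, with dashed lines at the values of all coding genes, 58.4% and 57.2%. The kinases and arrestins stand at 7 of 7, the G protein alpha subunits at 10 of 11, and the receptor genes at 14 and 10 of 49.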

How the data were processed

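The authors deposited, for each of 2 DNase-seq libraries of cerebellum, 2 peak lists with a signal value per peak, a table of FDR (q-values, the p-value columns of the files) of the local cut rate that lists bases under 0.05, and a list of footprints with their own deposited p-value column, which was not used. The assembly was mm10 per the labels. The sources used here do not give the aligner, the peak and footprint callers or the scale of the signal. Each list came from 1 library, without pooling.

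Starts and gene types were taken from GENCODE vM21 on chromosomes 1 to 19, X and Y, and sequence from the GRCm38 RefSeq assembly, on which no peak ran past a chromosome end. Overlaps were computed with Python 3.11.15, numpy 2.4.6 and pandas 2.3.3, figures with matplotlib 3.10.9. The overlap code was tested on simulated peaks. A footprint or peak was shared where it overlapped by at least 1 bp. Motifs were sought in footprints with 10 bp added on each side. Coding genes are counted by gene identifier.

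The genes, pathway lists, markers and motifs were chosen with earlier results of these data known. Results for 3 genes are not reported here. Named were the other receptor genes, the 2 with the most distal peaks in each of 6 families with the strongest distal peak found in both libraries, per list the 3 pathway genes of highest mean signal and at most 2 with no peak, and the peaks of the 5 genes of highest signal outside chromosome 18 as sequences. Other peaks and genes named, with the sequences so marked, were chosen after their values were seen. RefSeq starts were added as an alternative after seeing the data. With 1 group of 2 libraries no test was run.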

Additional observations from a re-analysis of the deposited data

How the results depend on the processing

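The low share of receptor genes with a TSS peak, 24.5% against 57.9% of other coding genes, kept its direction under every alternative run, but its size depended on the list. It was 45.9% against 62.8% with the longer lists and 12.2% against 50.9% with peaks at or above the median signal of each list, and the number in both replicates was 18 and 5. With a window of 500 bp, a window of 2 kb, peak centres, the start of the gene span alone, coding transcripts alone or RefSeq starts, which were chosen after seeing the data, it lay from 21.4% to 24.5%. Leaving out 1 replicate gave 20.4% to 28.6%, and 10 to 14 genes.

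The share with any peak within 50 kb did not keep its order. It was 95.9% against 88.8% with the longer lists and 89.8% against 87.6% within 100 kb, higher at receptor genes, and 68.4% against 77.2% within 25 kb, 77.6% against 82.1% from the gene span alone and 54.1% against 72.4% with peaks at or above the median. Leaving out 1 replicate gave 79.6% to 83.7%. Distal peaks per receptor gene were 3.67 with the longer lists, 1.15 within 25 kb, 3.85 within 100 kb, 0.806 with peaks at or above the median and 1.80 where distal meant over 2 kb from starts, each below the other coding genes, and 2.10 to 2.49 with 1 replicate left out. The cause was not tested. Of 193 values of single genes or families under these alternatives, 30 were counted as moved, 17 of them with the longer lists, which added peaks. For single genes, moved meant a change of more than the spread between replicates. Family counts did not all follow that measure: the nicotinic count, 2 in each replicate, was 3 with the longer lists and was not counted as moved. The 193 include values with 1 replicate left out, where the signal of a single gene could not move by more than that spread. With a window of 500 bp the mean start signal was 0.568 at Chrm4 and 0.838 at Adra2c, where replicate 2 alone kept a peak, and Adra2b had none. Adra1b and Htr1d had none from the gene span alone, nor Htr1d from coding transcripts, and Drd1, Drd2, Htr1d, Htr5a, Adra1b, Adra2a and Adrb1 had none at or above the median signal.

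No paired analysis was possible because there was 1 group. With 2 libraries an SD rests on 2 values, peaks under the authors' thresholds were not seen, and a start with no peak is not shown to be closed.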
